A study of Homo sapiens with 17 samples.

Results

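Matrix glycoproteins and elastic fibre components were followed in the MYCN-amplified human neuroblastoma line IMR32 after doxycycline had switched on NOTCH3IC, the intracellular and active part of the NOTCH3 receptor. The genes are FN1, TNC, SPARC, FBN1, FBN2, FBLN1, FBLN5, THBS1, POSTN and ELN, and all 37 probe sets annotated to one of these 10 symbols were taken, out of 54675 probe sets for 19775 named genes. The arrays come from inducible clones c8 (8 arrays, times 0 to 96) and c6 (9 arrays, times 0 to 120), with 1 array per clone and time. Each clone is 1 cell line derivative, every array after time 0 comes from doxycycline-treated cells, and no untreated later culture was analysed here, so time in culture and induction cannot be told apart. The labels give the times (0, 4, 8, 12, 24, 48, 72, 96 and 120) without a unit.

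The extracellular matrix around cells holds adhesive glycoproteins, matricellular proteins and elastic fibres. Fibronectin, from FN1, is laid down as fibrils on which cells attach through integrins. Matricellular proteins such as tenascin-C (TNC), SPARC, thrombospondin-1 (THBS1) and periostin (POSTN) modify that attachment and the assembly of collagen more than they bear load. Elastic fibres are built from tropoelastin (ELN) on microfibrils of the fibrillins FBN1 and FBN2, with the fibulins FBLN1 and FBLN5 as linking proteins. In the nervous system such genes are usually associated with neural crest derived mesenchyme, glia and vessel walls rather than with neuroblasts.

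Values are scaled probe set intensities on a linear scale (signals), and tests were made on log2(signal + 16), so changes of dim probe sets are understated. The arrays at 48, 72 and 96 are called late, those at 4, 8 and 12 early, and the array at 0 the start. The array medians lay between 14.6 and 19.3. The NOTCH3 signal was 703 to 836 late in clone c8 and 393 to 467 late in clone c6, against 218 and 94.6 at time 0. For the marker counts below, 4.91% of 13675 genes, each tested by its brightest probe set, rose late against start and 1.44% fell. Of 9 sympathetic neuroblast markers, 8 were tested, and late against start 2 fell (PHOX2A and DBH) and 1 rose (STMN2, whose time-0 level was under the filter), while TH stayed under the filter signal of 9.58 on every array. Their summed signal was 9469 to 11239.6 late, against 9720.0 to 12554 early and 12847 to 12932 at the start, so the late and early ranges overlapped. This sum mainly follows MYCN and GATA3, which were at 4915 and 3871 in clone c8 and 5493 and 4151 in clone c6 at time 0. Of 8 fibroblast and stromal markers, 7 were tested, and 3 rose late against start (LUM, THY1 and DCN) with 0 lower. LUM again had a time-0 level under the filter. PDGFRA lay the other way at -0.51 ± 0.14 (limma adjusted p = 0.0518). PDGFRB (1.23 ± 0.35), COL1A1 (0.49 ± 0.28) and COL1A2 (0.57 ± 0.21) did not pass either. The summed signal of the 8 stromal markers was 1135 to 2225 late, against 803 to 1368 early and 1009 to 1355 at the start. That sum mainly follows its brightest genes, PDGFRA and COL1A1, and late also LUM. The part of these markers in the results on matrix genes was not tested. The summed signal of 5 endothelial markers stayed at or below 68.5, that of 3 Schwann cell markers at or below 44.6 and that of 2 leukocyte markers at or below 13.3 on the early, late and time-0 arrays.

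A total of 4 genes rose late against start, FN1, TNC, SPARC and FBN1, and their promoters are shown because they moved in the same direction. The windows run from 250 bases before to 50 bases after the gene start of the RefSeq table (GRCh38.p14) and are written 5′ to 3′ on the strand of the gene, which is the minus strand for all of them. They lie at chr2:215436019-215436318 for FN1, chr9:115118108-115118407 for TNC, chr5:151686866-151687165 for SPARC and chr15:48644921-48645220 for FBN1. The annotated FBN1 gene (chr15:48408313-48645709) reaches further upstream than the start used in that table. Capitals mark the matches to any of 6 searched motifs, on either strand.
FN1: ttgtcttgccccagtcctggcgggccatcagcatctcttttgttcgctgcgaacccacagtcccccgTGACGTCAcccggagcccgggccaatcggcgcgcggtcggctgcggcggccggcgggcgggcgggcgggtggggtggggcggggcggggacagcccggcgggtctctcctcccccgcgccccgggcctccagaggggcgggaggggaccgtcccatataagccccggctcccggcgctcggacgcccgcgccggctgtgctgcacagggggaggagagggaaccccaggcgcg
TNC: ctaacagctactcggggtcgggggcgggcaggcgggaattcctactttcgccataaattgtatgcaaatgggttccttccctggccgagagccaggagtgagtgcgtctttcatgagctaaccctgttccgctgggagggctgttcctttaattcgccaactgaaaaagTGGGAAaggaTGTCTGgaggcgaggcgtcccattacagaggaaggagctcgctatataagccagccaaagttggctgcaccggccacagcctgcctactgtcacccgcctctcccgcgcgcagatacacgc
SPARC: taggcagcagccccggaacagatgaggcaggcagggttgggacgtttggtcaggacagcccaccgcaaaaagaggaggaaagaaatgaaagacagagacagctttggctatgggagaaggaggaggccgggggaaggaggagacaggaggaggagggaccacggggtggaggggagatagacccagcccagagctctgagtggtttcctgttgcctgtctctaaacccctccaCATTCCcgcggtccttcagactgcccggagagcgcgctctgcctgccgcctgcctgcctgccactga
FBN1: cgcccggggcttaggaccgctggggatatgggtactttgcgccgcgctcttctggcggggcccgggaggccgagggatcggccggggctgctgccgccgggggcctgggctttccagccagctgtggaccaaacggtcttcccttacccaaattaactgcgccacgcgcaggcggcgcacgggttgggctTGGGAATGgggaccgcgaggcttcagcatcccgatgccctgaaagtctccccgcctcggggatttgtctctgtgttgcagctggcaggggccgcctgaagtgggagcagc

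The motifs were TGGGAA, the core bound by the Notch cofactor RBPJ, CAGACA, an element of SMAD proteins, TGANTCA for AP-1, GGAATG for TEAD factors, TGACGTCA, the cAMP response element, and TATAAA, the TATA box. The match in FN1 is the cAMP response element at positions -183 to -176 from the start. TNC holds the RBPJ core at -81 to -76 and, read on the other strand, the SMAD element at -71 to -66. SPARC holds the TEAD element on the other strand at -17 to -12. In FBN1 the RBPJ core at -60 to -55 and the TEAD element at -58 to -53 overlap. A match to the RBPJ core is common: it was found in 24.0% of all 35116 promoters of this length and in 3 of the 10 promoters matched for 9 of the genes, TNC, FBN1 and FBLN5. The shares over all promoters were 16.9% for the SMAD element, 14.0% for the TEAD element, 7.71% for AP-1, 11.5% for the TATA box and 1.85% for the cAMP response element, and among the 10 promoters 1, 3, 1, 2 and 1 held them. The windows of FBN2 and FBLN1 held none of the 6. These are letter matches, and no binding was measured. ELN was not in the promoter table.

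Of the 37 probe sets, 18 passed the intensity filter and were tested, and these belong to 7 genes. The other 19 lie below it and are described by their signals. Late against start, 9 of the 18 rose and 0 fell by limma with Benjamini-Hochberg adjustment over all 32805 probe sets tested, of which 4.74% passed in all, 3.64% higher and 1.10% lower. The median log2 change of the 18 was 0.75, beside -0.00 over all probe sets. FN1 1558199_at and TNC 216005_at and 237169_at reach the filter through their later arrays, since their time-0 arrays lie under it. Neither the median nor the count over tested probe sets is therefore independent support. Of the 18, 6 are readings of FN1 alone. Without the time-0 array of clone c8 the count of 9 was 5, in FN1 and SPARC, with the remaining time-0 array assumed to vary like the other times. Without the clone term it was 5 as well, again in FN1 and SPARC (limma adjusted p = 0.0655 for TNC 201645_at and 0.0822 for FBN1 202766_s_at).

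**Figure D1:**
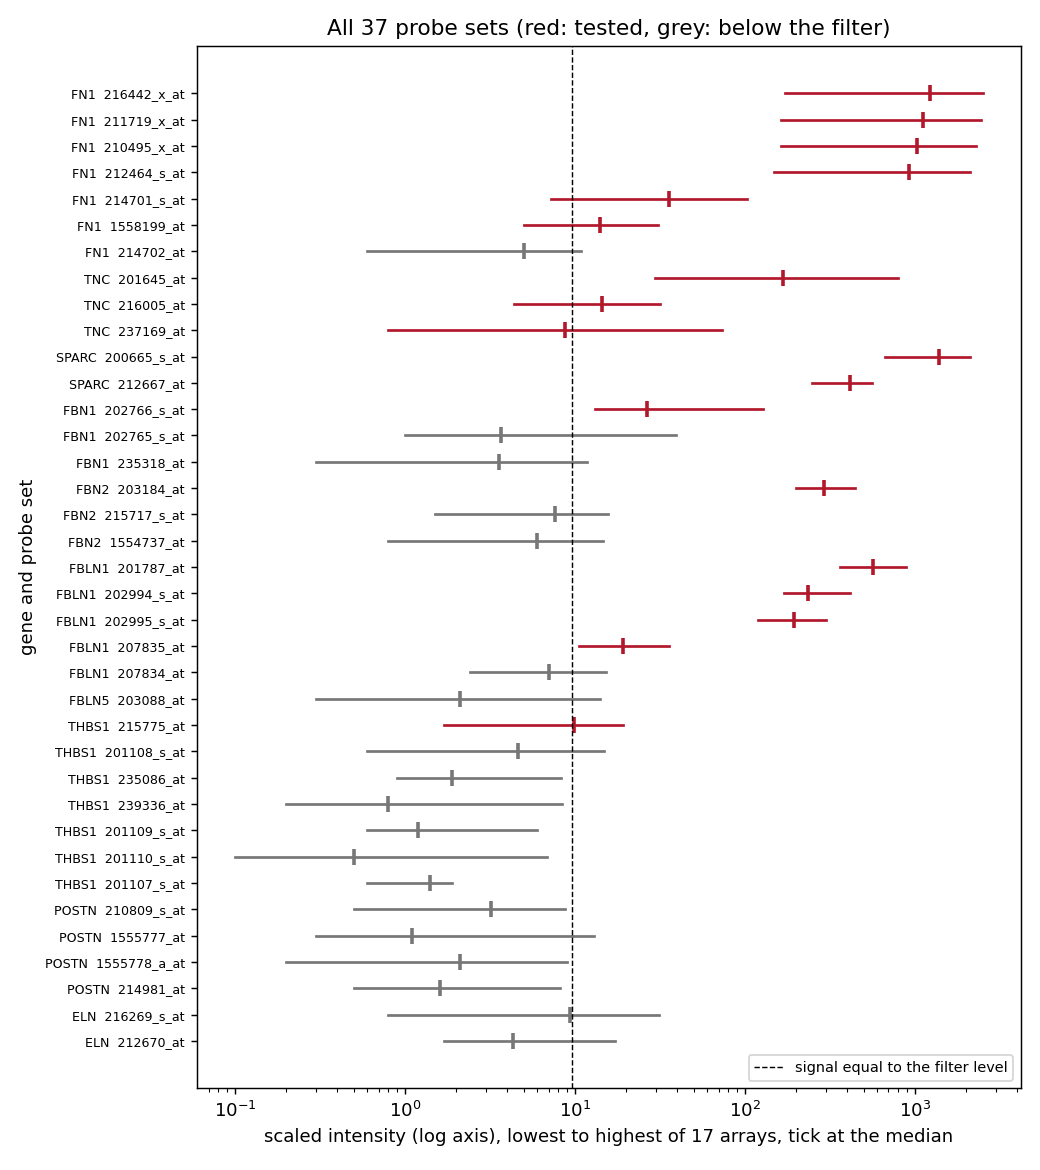
Signal of all 37 probe sets on a log axis: each line spans the lowest to the highest of the 17 arrays and the tick is the median. The 18 tested probe sets are red and the 19 below the filter are grey, and every POSTN, FBLN5 and ELN probe set is grey.

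FN1 gave the largest changes of the 18 tested probe sets late against start. In these bulk samples, more cells expressing a gene and more RNA per cell cannot be told apart. The signal of its brightest probe set, 216442_x_at, in clone c8 was 172, 247, 297, 1114, 1788, 2034, 1340.5 and 1510.1 at times 0 to 96. In clone c6 it was 272, 297, 378, 471.5, 1232, 1611, 2437, 2214 and 2521 at times 0 to 120. Every array from time 24 on was above every array up to time 8 in both clones. At time 12 clone c8 stood at 1114, below its later arrays, and clone c6 at 471.5. The log2 change late against start was 2.97 ± 0.28 (SE; limma adjusted p = 5.01e-06; 6 of 6 late arrays above their own time 0), which is 7.86-fold. Of the mean log2 change reached late in its own clone, 83.3% was present at time 12 in clone c8 and 26.6% in clone c6. At time 24 it was 105% and 74.3%. These shares are on the log2 scale and are not shares of the signal.

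The FN1 probe sets can be set beside each other as readings of the same arrays. Those named 211719_x_at, 210495_x_at and 212464_s_at changed by 3.06 ± 0.28, 2.92 ± 0.25 and 3.08 ± 0.28 late against start, and with 216442_x_at their pairwise correlations over the 17 arrays were at least 0.99. The suffix x marks probe sets with probes that may also match other transcripts, and the suffix s those shared by several transcripts, so these 4 are not independent measurements. The dimmer 214701_s_at followed less closely (r = 0.66 with 216442_x_at). It had a signal of 54.9, 89.5 and 73.3 late in clone c8 and 35.6, 71.6 and 103.5 late in clone c6, against 18.1 and 18.2 at time 0. In clone c6 it was 21.7 at time 120, where the brightest probe set was at its highest. Its change was 1.30 ± 0.27 (limma adjusted p = 0.00808), and it did not pass without the time-0 array of clone c8 (adjusted p = 0.277). With pseudocounts of 1 and 64 the change was 1.84 and 0.70. Probe set 1558199_at was at 0.60 ± 0.20 (limma adjusted p = 0.123, and adjusted p = 0.0453 without time 72 of clone c8), and 214702_at never exceeded 10.9.

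**Figure D2:**
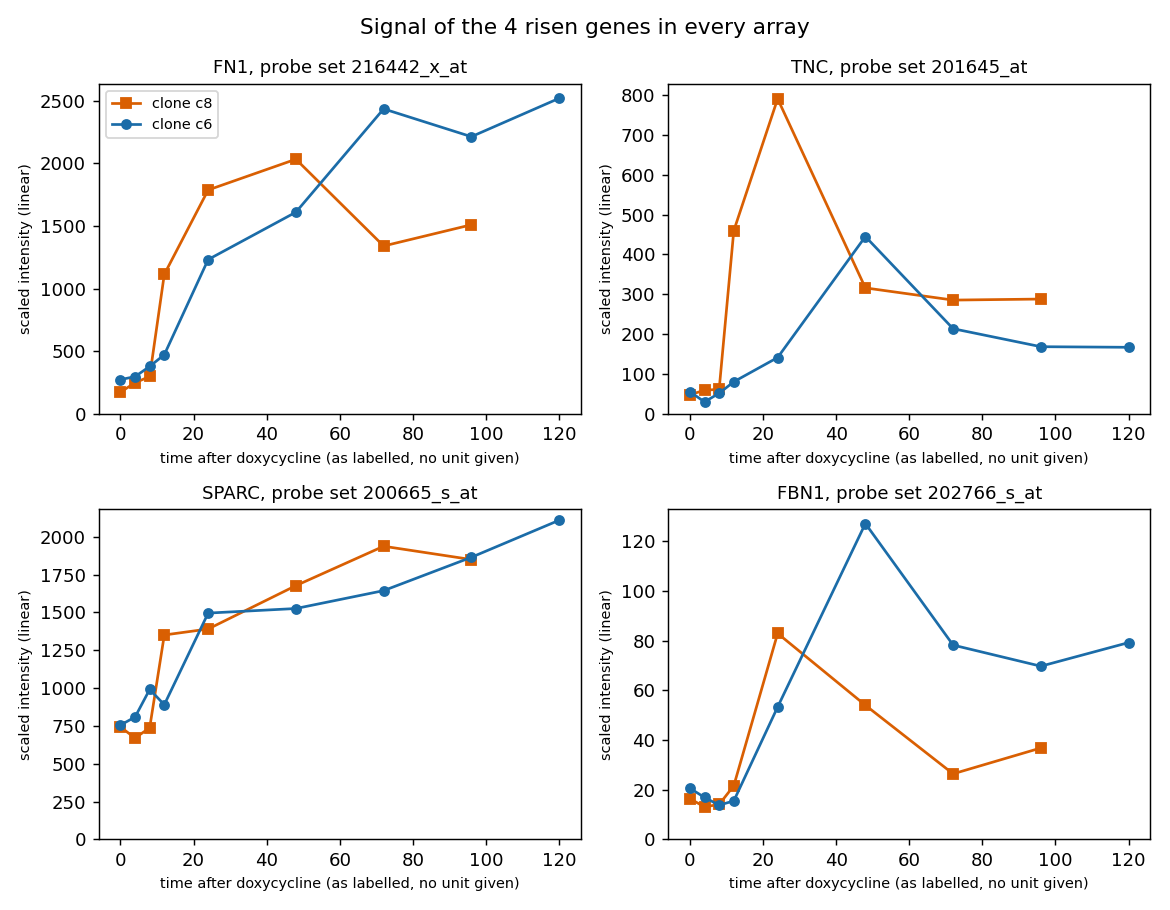
Signal (linear axis from 0) of the brightest probe set of FN1, TNC, SPARC and FBN1 against time as labelled, 1 point per array, with clone c8 as orange squares and clone c6 as blue circles. FN1 and SPARC stay high to the last array, while TNC and FBN1 have their highest array at time 24 in clone c8 and at time 48 in clone c6.

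SPARC, a collagen-binding glycoprotein, started brighter and rose less. The signal of 200665_s_at in clone c8 was 743, 670.0, 738, 1351, 1391, 1677, 1937 and 1849.5 at times 0 to 96. In clone c6 it was 756, 809, 991, 890.4, 1496, 1526, 1644, 1864 and 2109 at times 0 to 120. The late arrays lay above all early arrays in each clone, and in clone c6 the last array was the highest of the series. The log2 change late against start was 1.20 ± 0.15 (limma adjusted p = 5.73e-05; 6 of 6 late arrays higher). The other probe set, 212667_at, changed by 0.66 ± 0.13 (adjusted p = 0.00568) and correlated with the first at r = 0.88 over 17 arrays. Its call was lost without the time-0 array of clone c8 (adjusted p = 0.211).

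TNC encodes tenascin-C, a large glycoprotein that loosens attachment to fibronectin. The signal of 201645_at in clone c8 was 47.8, 58.8, 61.4, 460, 791, 316, 285 and 288 at times 0 to 96. In clone c6 it was 55, 29.7, 51.4, 80.2, 141, 445, 213.5, 168 and 167 at times 0 to 120. The highest array was time 24 in clone c8 and time 48 in clone c6. From there the signal + 16 had dropped 2.65-fold by time 96 in clone c8 and 2.50-fold in clone c6, yet each late array was still above its own time 0. The log2 change late against start was 2.11 ± 0.42 (limma adjusted p = 0.00528; 6 of 6 late arrays higher), and it did not pass without the time-0 array of clone c8 (adjusted p = 0.242).

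The dim TNC probe sets peaked with 201645_at in clone c8, and 1 of them did so in clone c6. Probe set 237169_at was highest at time 24 in clone c8 (73) and at time 48 in clone c6 (31), against 1 and 8.5 at time 0. Probe set 216005_at was highest at time 24 in clone c8 (31.7) and at time 12 in clone c6 (20), against 4.40 and 5.30 at time 0. Their changes late against start were 0.83 ± 0.38 and 0.62 ± 0.20 and did not pass (limma adjusted p = 0.311 and 0.0988). With a pseudocount of 1 they were 2.23 and 1.52, and 216005_at then passed (adjusted p = 0.0475).

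FBN1 encodes fibrillin-1, the main microfibril protein of adult tissue. The signal of 202766_s_at in clone c8 was 16.4, 13.1, 14.1, 21.6, 82.9, 54, 26.4 and 36.8 at times 0 to 96. In clone c6 it was 20.6, 16.9, 13.8, 15.5, 53.3, 127, 78.2, 69.7 and 79.2 at times 0 to 120. FBN1 stood near its start through time 12 in both clones and was above it on every array from time 24. As for TNC, the highest array was time 24 in clone c8 and time 48 in clone c6. The log2 change late against start was 1.13 ± 0.27 (limma adjusted p = 0.0191; 6 of 6 late arrays higher), 1.60 with a pseudocount of 1 and 0.61 with one of 64. It did not pass without the time-0 array of clone c8 (adjusted p = 0.165), without that of clone c6 (0.295) or without time 96 of clone c6 (0.0539).

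A dimmer FBN1 probe set, 202765_s_at, was not tested but had a profile of the same shape. Its signal did not exceed 3.10 up to time 12 in either clone, and it was 27 at time 24 in clone c8 and 39.6 at time 48 in clone c6. At time 96 it was 3.70 in clone c8 and 23.1 in clone c6. The remaining FBN1 probe set, 235318_at, stayed at or below 11.8.

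**Figure D3:**
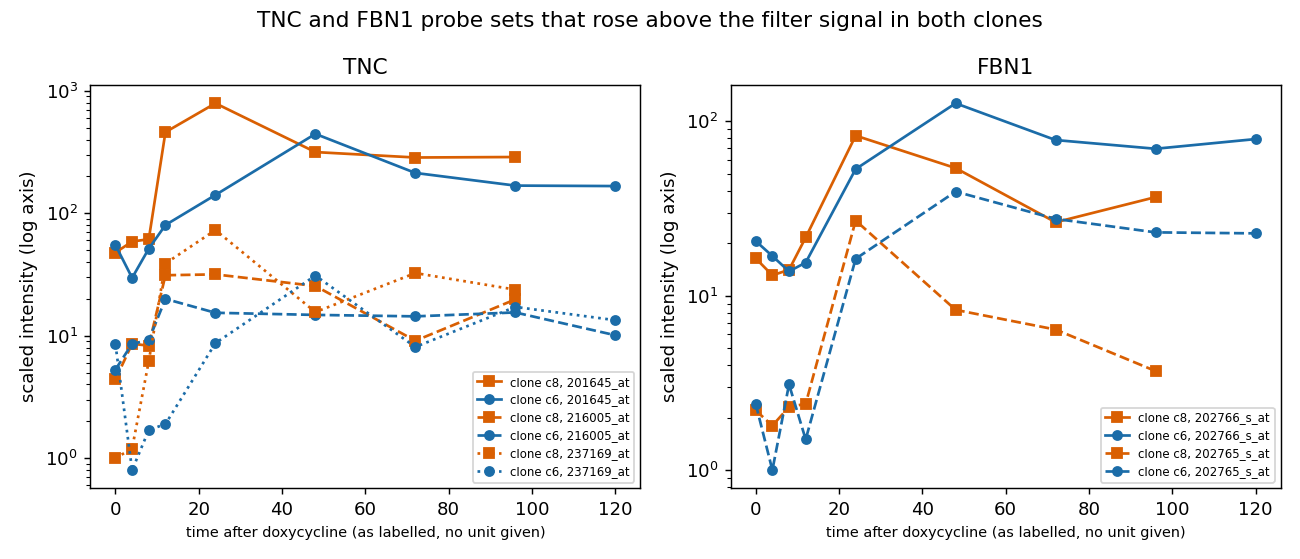
Signal on a log axis of the TNC probe sets (left) and of the brighter pair of FBN1 probe sets (right) against time as labelled, with clone c8 as orange squares and clone c6 as blue circles, and line styles for probe sets. The highest array of 201645_at, 237169_at, 202766_s_at and 202765_s_at is time 24 in clone c8 and time 48 in clone c6.

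FBN2 encodes fibrillin-2, the microfibril protein best known from embryonic tissue, and it did not follow FBN1. The signal of 203184_at was 290, 211 and 275 late in clone c8 and 376, 330 and 302 late in clone c6, against 237 and 337 at time 0. Late and time-0 arrays overlapped, with 3 of 6 late arrays above their own time 0. The change was 0.05 (95% interval -0.24 to 0.34; limma adjusted p = 0.919), so a 2-fold change in either direction lies outside the interval. The other FBN2 probe sets, 215717_s_at and 1554737_at, stayed at or below 15.7.

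FBLN1 encodes fibulin-1, which binds fibronectin and elastic fibres. Its probe sets differed among themselves, with pairwise correlations of -0.05 to 0.79 over the 17 arrays. The signal of 202995_s_at was 231, 191 and 168 late in clone c8 and 296, 255 and 214 late in clone c6, against 128 and 181.5 at time 0, so all 6 late arrays were above their own start. Its change of 0.50 ± 0.14 missed the threshold (limma adjusted p = 0.0511) and passed in 8 of 28 alternative settings. Probe set 202994_s_at was at 0.46 ± 0.17 (adjusted p = 0.174), again with 6 of 6 late arrays higher. Both were highest at time 24 in both clones, with 261 and 315 in clone c8 and 299 and 415 in clone c6.

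The brightest FBLN1 probe set, 201787_at, moved in opposite directions in the clones. Its late signals were 572, 593 and 423 in clone c8, all above the time-0 value of 398.5, and 476, 527 and 561 in clone c6, all below the time-0 value of 603. The pooled change was 0.09 ± 0.17 (limma adjusted p = 0.878). The dim 207835_at was at 0.30 ± 0.20 (adjusted p = 0.559), and 207834_at stayed at or below 15.2.

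The 4 remaining genes had low signals on all arrays. THBS1, which encodes a matricellular protein that binds many cell surface receptors, has 7 probe sets. The 1 that was tested, 215775_at, ranged from 1.70 to 19.3 over the 17 arrays, and its late arrays differed from the start by 0.19 ± 0.24 (limma adjusted p = 0.801), and the other 6 stayed at or below 14.9. POSTN, encoding periostin, has 4 probe sets, none above 12.9 on any array. FBLN5, encoding the fibulin that guides elastin onto microfibrils, has 1, at or below 14.1. The ELN probe sets for tropoelastin reached 31.1 at most, on 216269_s_at at time 12 of clone c6, where the next-highest array was 21.2 at time 96 of clone c8. Late signals of that probe set were 11.8, 9.40 and 21.2 in clone c8 and 12.9, 3.80 and 18.6 in clone c6, against 6.30 and 10.4 at time 0, so the groups overlapped. Detection calls were not used here, and whether these dim signals are above background was not tested.

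**Figure D4:**
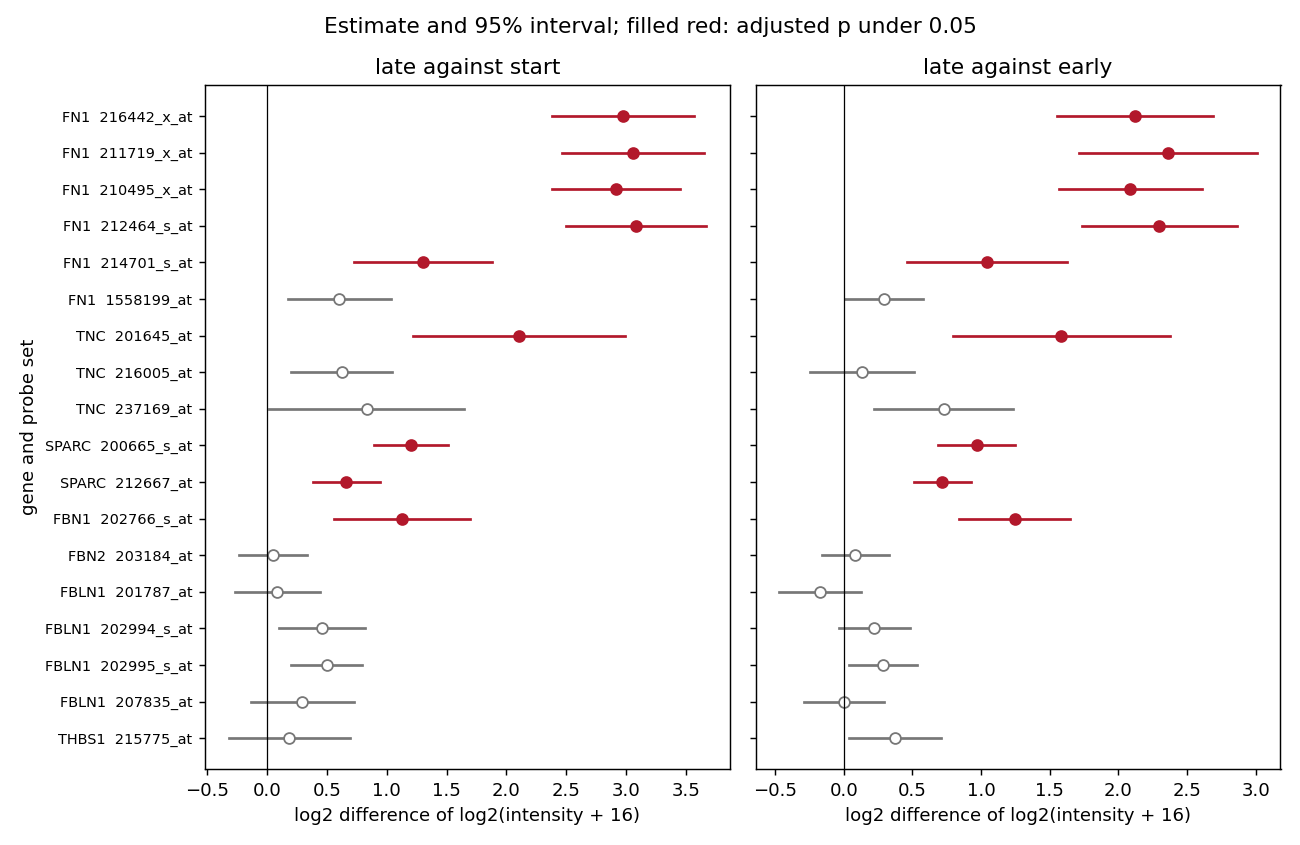
Log2 difference with its 95% interval for the 18 tested probe sets, late against start on the left and late against early on the right, with filled red points for an adjusted p under 0.05. The same 9 probe sets of FN1, TNC, SPARC and FBN1 are red in both comparisons.

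Late against early leaves out the time-0 arrays, with successive times of a clone serving as its replicates. Again 9 of 18 probe sets rose and 0 fell, where 3.35% of all probe sets passed, 2.53% higher and 0.820% lower, and they are the same 9. FN1 216442_x_at was higher by 2.12 ± 0.27 (limma adjusted p = 0.000116), SPARC 200665_s_at by 0.97 ± 0.13 (0.000243), FBN1 202766_s_at by 1.25 ± 0.19 (0.000687) and TNC 201645_at by 1.58 ± 0.37 (0.0224). In 7 of the 18 the late arrays lay above the early ones in both clones without overlap, beside 2.06% of all probe sets. These are the 4 bright FN1 probe sets, both SPARC probe sets and FBN1 202766_s_at. TNC is not among them, since time 12 of clone c8 was above all late arrays of that clone.

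The TNC call did not hold in 6 of 12 fits that each left out 1 array: times 4 and 8 of both clones and times 48 and 72 of clone c6 (adjusted p of 0.0507 to 0.0746). The FN1 214701_s_at call (1.04 ± 0.28, adjusted p = 0.0471) was lost in 8 of 12, without times 4, 8, 72 or 96 of either clone (0.0839 to 0.136). Without time 12 of both clones, a setting chosen after seeing the data, 10 of the 18 rose, where 1901 of all 32805 probe sets passed. TNC 237169_at was added at 0.98 (adjusted p = 0.00326). This probe set reaches the filter through its later arrays, so its call is no independent support.

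Early against start, 0 of 18 probe sets passed by limma, where 1.33% of all probe sets passed, 0.887% higher and 0.442% lower, and 5 of the 18 had an unadjusted p under 0.05. FN1 216442_x_at was at 0.85 ± 0.28 (adjusted p = 0.186) and TNC 201645_at at 0.52 ± 0.42 (0.692). SPARC 200665_s_at was at 0.23 ± 0.15 (0.580) and FBN1 202766_s_at at -0.12 ± 0.27 (0.919). At time 12 the signal of FN1 216442_x_at was 1114 in clone c8 and 471.5 in clone c6. A fit without that array of clone c6 takes time 12 from clone c8 alone, so its calls do not show an early rise in both clones. Without time 12 of clone c6, 3 FN1 probe sets passed, 216442_x_at at 1.10 (adjusted p = 0.0124), 212464_s_at at 1.01 (0.0299) and 210495_x_at at 0.998 (0.0323).

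The clones were then compared directly. For the difference in response (late minus early, clone c8 minus clone c6), 0 of 18 probe sets and 0% of all 32805 passed by limma, with a smallest adjusted p of 0.246 and 2568 probe sets at an unadjusted p under 0.05. Among the 18 that count was 1, FBN1 202766_s_at, at -0.99 (95% interval -1.64 to -0.35; adjusted p = 0.586): its late minus early change was 0.75 in clone c8 alone and 1.74 in clone c6 alone. The interval was -1.71 to 0.57 for FN1 216442_x_at, -2.43 to 0.71 for TNC 201645_at and -0.42 to 0.72 for SPARC 200665_s_at, and those of FN1 and TNC include a 2-fold difference.

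In level over the 8 shared times, 6 of 18 probe sets passed by limma, 3 higher and 3 lower in clone c8, where 19.1% of all probe sets passed, 9.33% higher and 9.72% lower. FBN2 203184_at was lower in clone c8 by 0.47 ± 0.08 (log2 -0.47, adjusted p = 0.000952) and FBLN1 202995_s_at by 0.38 ± 0.08 (log2 -0.38, adjusted p = 0.00537), each at 8 of 8 times. These held whichever of the 8 shared times was left out. SPARC 212667_at was 0.25 higher in clone c8 (adjusted p = 0.0385; 8 of 8 times), while its brighter companion 200665_s_at was at 0.02. FN1 214701_s_at (0.51, adjusted p = 0.0440), TNC 201645_at (0.76, 0.0481) and FBLN1 201787_at (-0.32, 0.0417) passed narrowly. The 4 bright FN1 probe sets lay the other way, at -0.11 to -0.05, and did not pass. Leaving out 1 array here also removed the array of the other clone at that time. The 16 such fits are therefore near-duplicate pairs, with the same estimates for either clone. The SPARC call was lost in 10 of the 16 (without times 8, 12, 24, 48 and 96). Those of FN1 (times 4 to 72), TNC (all times but 0 and 48) and FBLN1 201787_at (all times but 48 and 72) were each lost in 12 of 16.

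The genes whose brightest probe set followed the risen members most closely over the 17 arrays are given as a description, since all of these arrays share the same time courses. For FN1 they were S1PR3, a sphingosine-1-phosphate receptor (r = 0.99), the fibrillar collagen COL3A1 (0.98) and the adhesion molecule MCAM (0.97). For SPARC they were COL3A1 (0.97), S1PR3 (0.97) and OLFML3 (0.96). For TNC they were FAT3, a protocadherin (0.96), CHST1 (0.96) and MCHR1 (0.95), and for FBN1 the potassium channel gene KCNN3 (0.97), SH3PXD2B (0.94) and WWC3 (0.93). Between the members, FN1 and SPARC had an r of 0.95, FN1 and FBN1 0.85 and FN1 and TNC 0.82. FN1 had an r of 0.20 with FBN2 and 0.05 with FBLN1.

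Other genes were taken from lists, each gene by its brightest probe set. Of the 13675 genes tested in this way, 4.91% rose and 1.44% fell late against start, with a median log2 change of 0.02. Of 24 listed genes of elastic fibres and microfibrils, 19 were tested, and 2 rose and 0 fell. These are MFAP2, a microfibril-associated glycoprotein (0.81 ± 0.14, limma adjusted p = 0.00206), and LOXL2, which cross-links collagen and elastin (0.47 ± 0.12, adjusted p = 0.0284). The median log2 change of the 19 was 0.13. LOX, the lysyl oxidase itself, was at -0.10 ± 0.16, EFEMP2, the fibulin needed for elastic fibre assembly in mice, at 0.31 ± 0.15 and the latent TGF-beta binding protein LTBP1 at 0.46 ± 0.19, none of which passed. Early against start EMILIN2 rose (1.09 ± 0.22, adjusted p = 0.0215), where 1.18% of all genes rose, and late against early 0 of the 19 passed, where 3.50% rose.

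Of 21 tested matricellular and other adhesive glycoproteins (32 listed), 6 rose and 0 fell late against start, beside the 4.91% and 1.44% of all genes, with a median log2 change of 0.37. The 3 of smallest p were CCN2, encoding connective tissue growth factor (1.78 ± 0.18, limma adjusted p = 1.18e-05), CCN1, encoding its relative CYR61 (2.03 ± 0.23, 3.15e-05), and MGP, the matrix Gla protein that restrains calcification (2.52 ± 0.30, 5.79e-05). CCN2 had a time-0 level under the filter (1.60 in clone c8 and 6.40 in clone c6) and was tested through its later arrays. MGP was at 2.6 in clone c8 and 23.4 in clone c6 at time 0, so its start in clone c8 was under the filter signal of 9.58. CCN1 averaged 261 late in clone c8 and 403 late in clone c6, against 57 and 58.8 at time 0. Relatives of the members differed among themselves. Of the thrombospondins, THBS3 rose (0.61 ± 0.16, adjusted p = 0.0330), THBS4 was at 0.51 ± 0.24 and did not pass, and THBS2 was below the filter. Of the SPARC relatives, SPOCK1 (1.39 ± 0.19, adjusted p = 0.000218) and FSTL1 (0.93 ± 0.12, 9.61e-05) rose, and SPARCL1 was below the filter. SPOCK2 (-0.07 ± 0.21), SPOCK3 (-0.07 ± 0.23), SMOC1 (-0.03 ± 0.25) and SMOC2 (0.23 ± 0.24) did not pass. The tenascins TNR (0.31 ± 0.27), TNXB (0.34 ± 0.26) and TNN (0.65 ± 0.27) did not pass. Late against early, 4 of the 21 rose and 0 fell, where 3.50% of all genes rose. SPOCK1 and THBS3 did not pass in that comparison (limma adjusted p = 0.106 and 0.107).

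Of 12 tested receptors of these glycoproteins (13 listed), 2 rose and 0 fell late against start, again beside 4.91% and 1.44% of all genes. ITGA9, the integrin subunit that binds tenascin-C, rose by 2.09 ± 0.19 (limma adjusted p = 4.44e-06), with an average of 384 late in clone c8 and 399 late in clone c6, against 90.1 and 68.9 at time 0. ITGB5, a partner of the alpha V subunit, rose by 1.13 ± 0.24 (adjusted p = 0.00876). Its time-0 signal was 6.2 in clone c8, under the filter signal of 9.58, and 21 in clone c6. The subunits of the classical fibronectin receptor were at -0.19 ± 0.25 for ITGA5 and 0.00 ± 0.09 for ITGB1 (adjusted p = 0.804 and 0.996). The thrombospondin receptors CD47 and CD36 were at -0.31 ± 0.14 and 0.65 ± 0.23 and did not pass. The median log2 change of the 12 was 0.03. Early against start, 1 of the 12 rose, ITGA9 (0.91 ± 0.19, limma adjusted p = 0.0287), and 0 fell, where 1.18% of all genes rose. Late against early 2 rose, ITGA9 and ITGB5, where 3.50% of all genes rose.

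**Figure D5:**
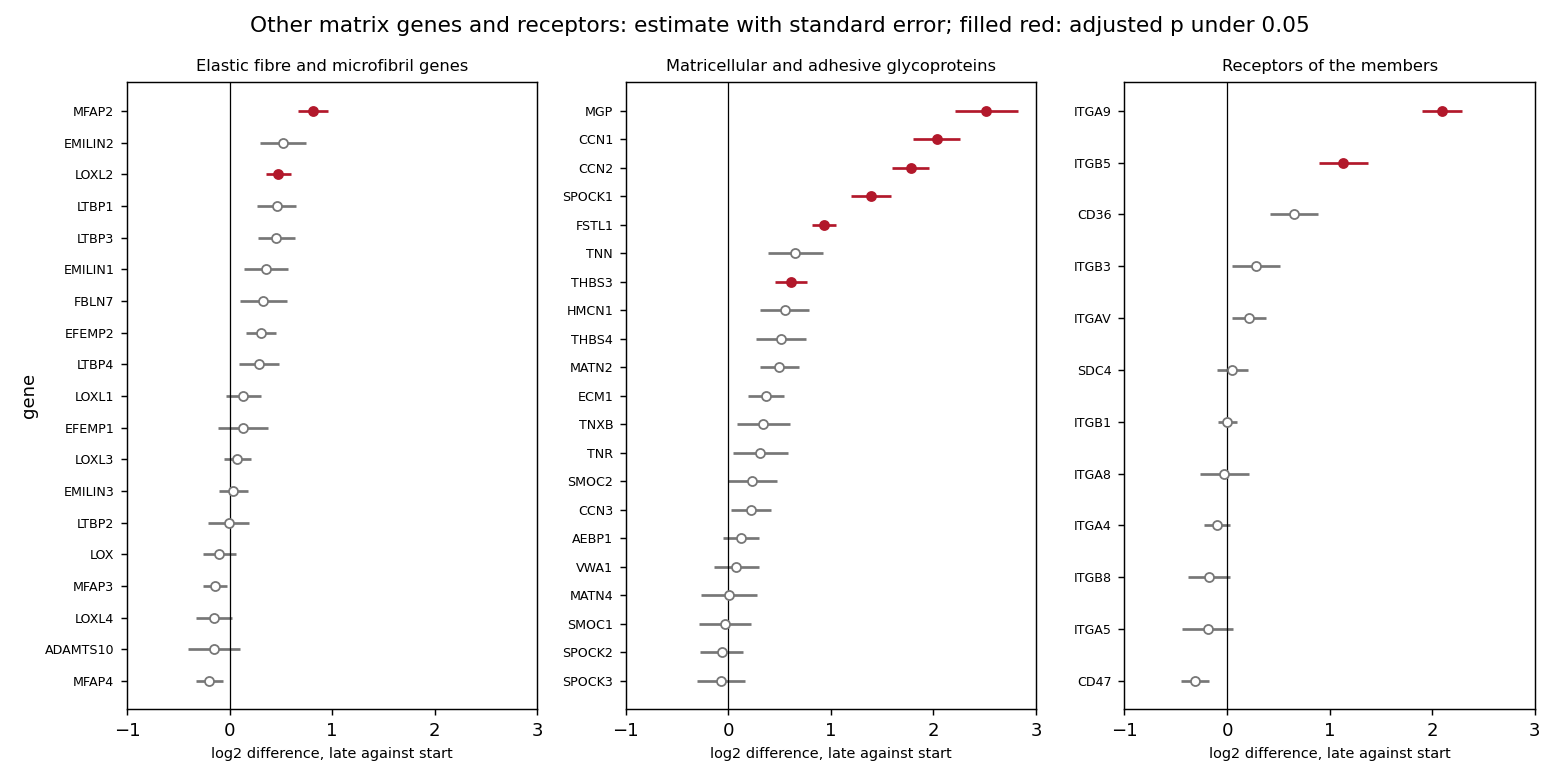
Log2 difference late against start, with its standard error, of the tested elastic fibre and microfibril genes (19), matricellular and adhesive glycoproteins (21) and receptors (12), each by its brightest probe set, with filled red points for an adjusted p under 0.05. The calls are 2, 6 and 2 genes, all of them higher.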

How the data were processed

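Total RNA of 17 samples was labelled and hybridised to 1-colour arrays, per the labels. The authors deposited 1 intensity per probe set, unlogged, and MAS5 and GCOS are named in the submitters' processing notes, without versions. All arrays have a 2% trimmed mean of 100.01. Signals were transformed as log2(value + 16). A probe set was tested when its mean log2 value was at or above the 40th percentile (log2 4.68), which left 32805 of 54675, and no normalization was added. Tests used limma 3.58.1 in R 4.3.3 (lmFit, eBayes with an intensity trend, Benjamini-Hochberg adjustment, threshold 0.05). Late and early against start came from all 17 arrays with terms for time and clone (7 residual degrees of freedom), late against early from 12 arrays with a clone term (9), the difference in response from their interaction (8), and the difference in level from 16 arrays (7). Since no label says that times were separate cultures, p-values reflect only how these arrays vary, and their number limits the precision. The clone is the pairing, from the labels: the c8 minus c6 differences of any pair of shared times had an r of 0.16 to 0.45 across probe sets. Gene symbols are those of the platform annotation, which gave 1 symbol for 41097 probe sets, several for 1801 and none for 11777, and no probe set named a member among several. At most 1.42% of values were equal between any pair of arrays. On simulated arrays with 200 of 32805 probe sets changed, 2-fold changes were recovered in 74% of cases for late against start, 94% for late against early and 40% for the difference in response, and 4-fold changes in 98%, 100% and 90%. The simulated noise was independent between arrays, with no drift among the times within a phase. Recovery may therefore be lower in these data where successive times serve as replicates, as in late against early and the difference in response. Members, lists and comparisons were chosen with earlier results of these data known. All member probe sets are described, and of each further list up to 3 genes of smallest p in each direction could be named, beside relatives of the members, named after their values were seen. Other settings tried were leaving out single arrays, fitting a clone by itself or without its term, averaging phases, gene-level values, other filters, pseudocounts of 1 and 64, quantile or median scaling, and eBayes with no trend. Promoter windows are from RefSeq (GRCh38.p14).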

Additional observations from a re-analysis of the deposited data

Results flagged for a closer look

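The brightest FBLN1 probe set, 201787_at, is listed because its late arrays lay on opposite sides of their own time 0 in the clones. The mean log2 change of the 3 late arrays was 0.38 in clone c8 and -0.21 in clone c6, with 3 of 3 arrays on that side in each. The difference between these changes from time 0 rests on 1 start array per clone and was not tested. The related difference in late minus early change was 0.54 (95% interval -0.00 to 1.08) and did not pass by limma (adjusted p = 0.642).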

How the results depend on the processing

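Among 619 values of called member probe sets under alternative settings, 503 kept their call and 116 lost it, and none of the values that passed in either setting changed direction, while some values that passed in neither did. Over all probe sets the counts of calls were 1556 late against start, 436 early against start, 1100 late against early, 0 for the clone difference in response and 6252 for that in level. Leaving out 1 array gave 599 to 1755, 66 to 606, 777 to 1908, 0 to 0 and 4837 to 5833. For the member probe sets (9, 0, 9, 0 and 6) it gave 5 to 10, 0 to 3, 7 to 11, 0 to 0 and 2 to 5. For the difference in level, leaving out 1 array also removed the array of the other clone at that time. Late against start without the replicate block, that is without the clone term, 806 probe sets and 5 members passed, and early against start 95. In 1 clone alone the start is a single array, assumed to vary like the other times. In clone c8 alone it was 184 and 3 members late against start, 41 early against start, and 308 and 3 members late against early. In clone c6 alone it was 456 late against start and 14 early against start. Late against early, the 3 members called in clone c8 alone were of FN1 and SPARC, and the 9 in clone c6 alone of FN1, SPARC, TNC and FBN1. The mean late changes from the single start array in clones c8 and c6 were 1.27 and 1.13 for SPARC 200665_s_at. They were 2.29 and 1.92 for TNC 201645_at and 0.73 and 1.52 for FBN1 202766_s_at. Early against start, 227 passed with no filter, 204 without the trend and 140 with phase means. With 1 probe set per gene, where fewer features are tested, 949 genes with 4 members, 275 genes, 708 genes with 4 members and, in level, 2963 genes with 2 members passed. With probe sets averaged per gene it was 772 with 3 members, 212, 549 with 3 members, and 2420 with 0 members. Members differing in level were 3 with median centring, 2 with no filter and 2 without the trend. With early as times 4 and 8, a setting chosen after seeing the data, 1901 probe sets passed late against early and 1 for the difference in response, SYNPO2, named after its value was seen. The cause of these shifts was not tested. Dim probe sets depend on the pseudocount, and detection calls were not used here.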
